A study of Mus musculus with 6 samples.

Results

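Adipogenic regulators and markers were followed on the arrays of this study through 9 genes. They were the transcription factors Cebpb, Cebpd, Pparg and Cebpa and the lipid-handling or secreted genes Fabp4, Lpl, Cd36, Adipoq and Agt. Every probe on the array that carried 1 of these gene names and was not a control was taken, which gave 13 of 61307 probes and 9 of 50090 gene names. Cebpa and Lpl had 2 probes each, Fabp4 had 3, and the other genes had 1. The probes are reported separately.

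Adipogenesis is the conversion of fibroblast-like precursors into fat cells, and it runs as a cascade of transcription factors. C/EBPβ and C/EBPδ (Cebpb, Cebpd) are induced early by hormonal cues and switch on PPARγ (Pparg) and C/EBPα (Cebpa), which sustain each other and drive the genes of the mature fat cell. Those genes include the fatty acid carrier Fabp4, the lipase Lpl, the fatty acid translocase Cd36 and the hormone adiponectin (Adipoq). Agt encodes angiotensinogen, the precursor of angiotensin, which fat cells secrete. NIH3T3 is a mouse embryo fibroblast line that does not usually form fat cells unless Pparg or another such regulator is forced on it.

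The study asked how overexpression of SIRT7, a nucleolar deacetylase of the sirtuin family, changed gene expression in NIH3T3 cells. All 3 groups were NIH3T3 cells transduced with a retrovirus made from the vector pCX4Neo and selected with Geneticin. The GFP group carried GFP alone and served as control, while LT7 (long cells) and ST7 (small cells) carried SIRT7 fused to GFP. LT7 came from the elongated cells around, and ST7 from within, compact colonies that formed when SIRT7GFP cultures were kept confluent. Both were picked with cloning cylinders and taken through single-cell cloning, so each is a single clone, the GFP line was grown from colonies after dilution plating, and clone and group cannot be told apart. No adipogenic treatment was given to any group in the sources used here. Each group had 2 replicates from different passages, and each replicate was hybridized to a one-colour Agilent array, so p-values measure the spread between passages of 1 line.

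The arrays labelled ST7 stood apart from the others. Their 75th percentile of the background-subtracted signal was 16.3 and 17.1, against 317 to 384 on the other 4 arrays, and 25.6% and 26.4% of probes were well above background (a mark of the scanner software), against 47.4% to 57.5%. Sirt7 itself showed no clear rise in either SIRT7GFP line. Its brighter probe read 2480 to 3125 in GFP and, overlapping with this, 2782 to 3633 in LT7. On the arrays labelled ST7 it read 2.85 and 3.28, at background. The species of the introduced SIRT7 is not given in the sources used here, so whether these probes read it cannot be told. Of 12 fibroblast markers, 11 were well above background on both GFP and both LT7 arrays and 4 on both ST7 arrays, with a summed signal of 397012 to 408433 in GFP, 429439 to 432672 in LT7 and 15069 to 16608 in ST7. Of 12 epithelial markers, 3, 2 and 4 were well above background on both arrays of GFP, LT7 and ST7, with summed signals of 148 to 239, 181 to 231 and 2054 to 2234. Most of the ST7 sums came from a single gene each, Vim (14612 and 16192) and Krt18 (1881 and 1755). On the ST7 arrays 7 epithelial markers were well above background on neither, among them Cdh1 and Ocln. Of 10 macrophage markers the counts were 5, 5 and 1 (1151 to 1425, 795 to 858, and 90.4 to 168), and of 9 endothelial markers 2, 0 and 0 (74.1 to 80.8, 47.3 to 55.6, and 28.5 to 32.1). LT7 replicate 1 was read in a scan of its own, and its added spike-in RNAs had a mean signal of 7491 against 355 to 433 on the other arrays.

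In GFP cells 6 of the 9 genes were well above background on both arrays: Cebpb, Cebpd, Pparg, Fabp4, Lpl and Agt. Cebpa was not, and Cd36 and Adipoq were at background on all 6 arrays. In LT7 no probe of the transcription factors passed the test, while Fabp4, Lpl and Agt were 2.43-fold to 20.9-fold lower, of which a single Fabp4 probe passed the limma test. On the arrays labelled ST7 both Cebpa probes were high and Cebpd, Fabp4, Lpl and Agt were not well above background. The signal of each probe before scaling is plotted for all arrays.

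**Figure D1:**
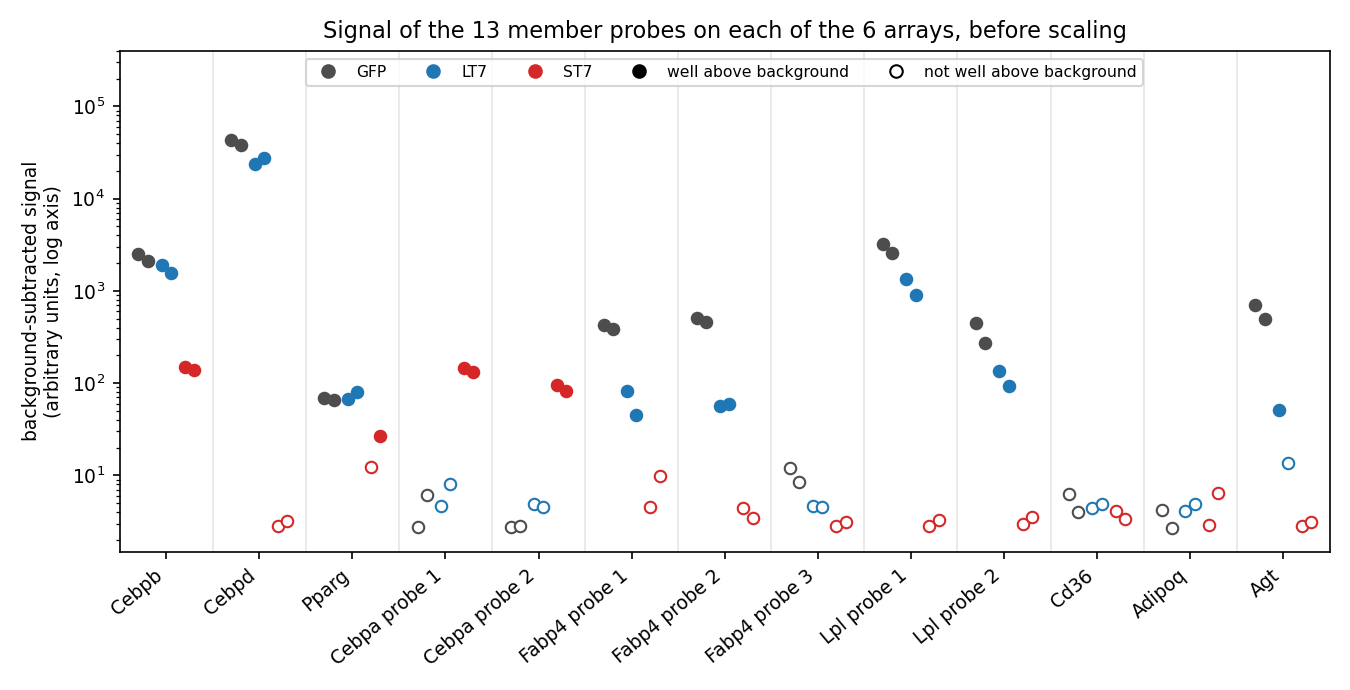
Background-subtracted signal (arbitrary units, log axis) of the 13 member probes on the 6 arrays before scaling; each point is 1 array, filled where the probe was well above background and open where it was not. Fabp4, Lpl and Agt step down from GFP to LT7, Cebpd drops from 23477 or more to 3.22 or less in ST7, and only the Cebpa probes are high in ST7 alone.

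Changes between groups are differences of log2 signal after the 75th percentile of each array had been subtracted, which was the normalization of the study, and limma, fitted to all 6 arrays, tested them with p-values adjusted by Benjamini-Hochberg across every probe. A fold is the change on this scale. Where the dimmer group had no array well above background only a lower limit is given ("at least"), for which the dim level on each array was either what the probe itself read or the dimmest signal that any probe well above background had there, whichever was higher. In bulk RNA fewer cells that express a gene and less RNA per cell cannot be told apart.

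The early regulators Cebpb and Cebpd were measured on all GFP and LT7 arrays. Cebpb gave a signal of 2495 and 2092 in GFP replicates 1 and 2 and of 1912 and 1580 in LT7. Both LT7 values lay below both GFP values, but the log2 difference of -0.30 (SE 0.20, adjusted p = 0.44) did not pass the test. Cebpd gave 42637 and 38155 in GFP and 23477 and 27678 in LT7, again without overlap. Its log2 difference was -0.56 (SE 0.22, adjusted p = 0.18), and this did not pass either.

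Pparg, the nuclear receptor at the centre of the cascade, read 68.4 and 65.5 in GFP and 67.6 and 81.1 in LT7. The groups overlapped, and the log2 change of 0.24 (SE 0.40, adjusted p = 0.78) did not pass the test. It was -1.97 with scaling on the spike-in RNAs, which put the median of all probes at -2.05. Cebpa was not well above background on any GFP or LT7 array. Its probe 1 gave 2.79 and 6.10 in GFP and 4.71 and 8.18 in LT7, and its probe 2 gave 2.75 and 2.83 against 4.90 and 4.58, so no fold is given.

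Probe 1 of Cebpa and the probe of Cebpb each held 60 bases. They are shown because these members of the C/EBP family gave different patterns over the 3 groups. The capitals mark the longest run common to both probes, of 8 bases:
Cebpa probe 1: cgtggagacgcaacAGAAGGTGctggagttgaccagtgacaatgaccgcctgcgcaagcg
Cebpb: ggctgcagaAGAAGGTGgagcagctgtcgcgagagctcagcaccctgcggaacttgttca
Both probes had a GC content of 60.0%.

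Fabp4, the carrier of fatty acids in the cytoplasm of fat cells, was lower in LT7 by its probes 1 and 2, of which probe 2 passed the test, and its probe 3 was at background. Probe 1 gave 426 and 384 in GFP and 81.3 and 44.9 in LT7. Probe 2 gave 505 and 455 in GFP and 57.0 and 59.5 in LT7. Every LT7 value of these probes was below every GFP value, and all 4 LT7 values were well above background.

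Fabp4 probe 2 changed by -2.94 (SE 0.23, adjusted p = 0.039), which is 7.69-fold lower and the only limma call among the members. Probe 1 changed by -2.64 (SE 0.44, adjusted p = 0.10), or 6.25-fold lower, and did not pass the test. The call of probe 2 was lost without GFP replicate 1 (adjusted p = 0.27), GFP replicate 2 (0.13), LT7 replicate 1 (0.062), ST7 replicate 1 (0.084) or ST7 replicate 2 (0.084), while its log2 change stayed between -2.99 and -2.86. It was also lost with the replicate block (0.10), quantile normalization (0.37), scaling on the spike-in RNAs (0.50) and only the GFP and LT7 arrays in the fit (0.084). The third probe of Fabp4 did not rise well above background anywhere, with 12.0 and 8.51 in GFP and 4.63 and 4.52 in LT7. Fabp4 probes 1 and 3 are shown because they gave different readings although the array's design assigns them to the same transcript, with the capitals marking their longest common run of 7 bases:
Fabp4 probe 1: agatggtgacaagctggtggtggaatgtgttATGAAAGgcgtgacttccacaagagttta
Fabp4 probe 3: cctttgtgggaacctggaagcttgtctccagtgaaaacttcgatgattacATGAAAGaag

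Lpl encodes lipoprotein lipase, which frees fatty acids from circulating triglycerides. Its probe 1 gave 3194 and 2573 in GFP and 1348 and 899 in LT7, and its probe 2 gave 444 and 276 in GFP and 137 and 92.4 in LT7. The groups did not overlap for either probe. The log2 changes were -1.28 (SE 0.24) and -1.54 (SE 0.27), or 2.43-fold and 2.91-fold lower, each at an adjusted p of 0.10 that missed the threshold.

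Agt gave 709 and 498 in GFP, and 51.9 and 13.6 in LT7, where only replicate 1 was well above background. Group means were 603 ± 149 (SD, n = 2) and 32.7 ± 27.1. The log2 change of -4.39 (SE 0.60, adjusted p = 0.10) was 20.9-fold lower, a fold that rests in part on the LT7 replicate 2 value at background. The change did not pass the test with all arrays. It was -5.30 without LT7 replicate 1, where it rests wholly on that background value, and -3.47 without LT7 replicate 2. Cd36 and Adipoq, the remaining markers of mature fat cells, stayed between 2.70 and 6.36 in GFP and between 4.10 and 4.89 in LT7, at background.

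By limma 1 of 13 member probes was called in LT7, against 0.176% of all probes, and it was lower (0.132% of all probes were). At an unadjusted p under 0.05 limma gave 8 of 13 (27.2% of all probes), with 7 lower (4.38%) and 1, Cebpa probe 2 at background, higher (22.9%). The methods of the study call genes by a fold change with a minimum in each replicate and another in their mean, without naming its scale. It was read here as a log2 ratio to the GFP mean of at least 0.8 in each replicate and over 1 on average, in either direction. By this fold rule 6 of 13 member probes were called, against 5.90% of all probes, and all 6 were lower (3.02% of all probes were) and none higher (2.89%). They were the probes of Fabp4, Lpl and Agt, of which Fabp4 probe 3 was at background on all arrays. Among the 32119 probes well above background on both GFP arrays, 5 of 8 member probes were called lower, against 3.45%. Fabp4 and Agt are also in gene lists that the study drew from these LT7 arrays, and the members were chosen with earlier results of these data known. How far these counts exceed the shares of all probes was thus partly fixed in advance. In one of the study's lists both stand beside positive values, opposite to the direction measured here, while another gives Agt as lower. The names in the first of these run alphabetically and its values from highest to lowest, so a value may not belong to the name beside it. Pax6 and Notch1 have opposite signs in that list and in a further one. The deposited log2 matrix gave both Fabp4 and Agt as lower, like the scanner signals.

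Over the 7 member probes well above background on all 4 arrays of GFP and LT7 the median log2 change was -1.28, against 0.03 over the 26928 probes of all genes measured in this way. Fabp4 and Lpl entered with 2 probes each, so they weigh more than the other genes, and this median is the value of Lpl probe 1. The 3 probes of transcription factors lay between -0.56 and 0.24 and the 4 of Fabp4 and Lpl between -2.94 and -1.28. Within the scan that held the other 5 arrays, that is without LT7 replicate 1, the changes were -3.02 and -2.86 for Fabp4 probes 1 and 2 and -1.52 and -1.77 for Lpl probes 1 and 2. For Agt the change was -5.30, where the only LT7 value left was at background. The direction of Fabp4, Lpl and Agt in LT7 was the same under all 5 scalings tried, but this was largely fixed in advance. The spike-in scaling put the median of all probes at -2.05, and the others put it between 0.02 and 0.17. The part of the scan in the changes of Fabp4, Lpl and Agt was not tested beyond leaving out LT7 replicate 1.

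**Figure D2:**
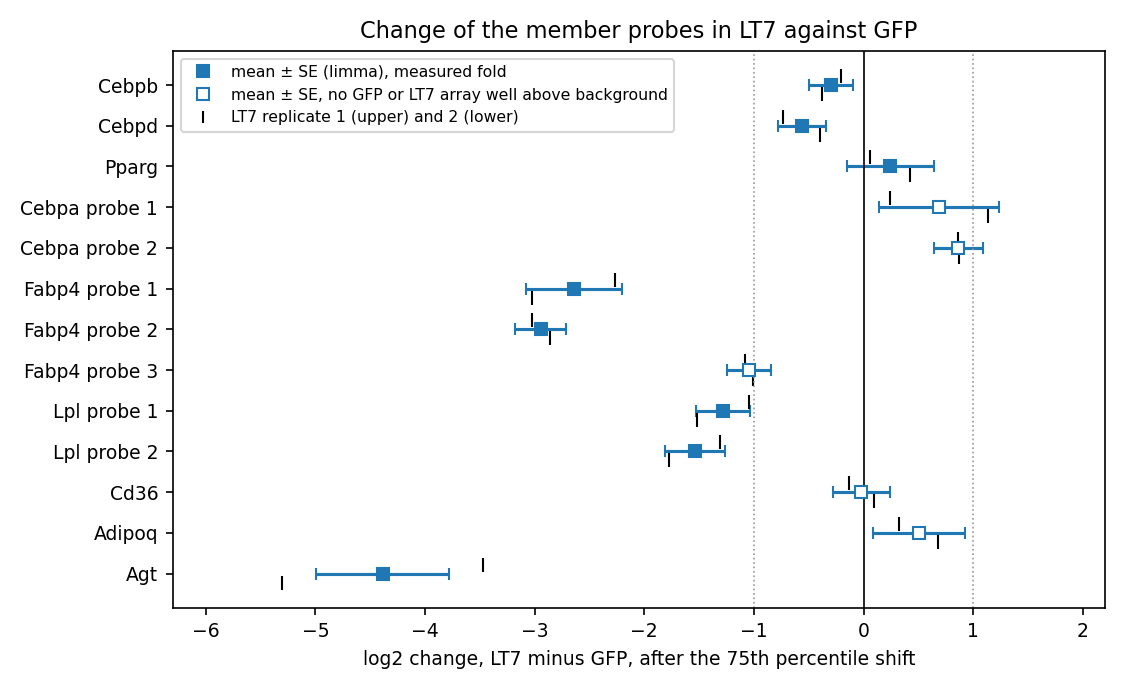
Log2 change in LT7 against GFP after the percentile shift for each member probe; squares are means with SE from limma (filled where a fold was measured, open where no GFP or LT7 array had the probe well above background), ticks are LT7 replicates 1 (upper) and 2 (lower), and dotted lines mark a change of 1 in either direction. All probes of Fabp4, Lpl and Agt lie below -1, among them Fabp4 probe 3 (-1.04) at background, and the transcription factors lie between -0.56 and 0.86.

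Adipogenesis genes outside the members were described from fixed lists, each gene by its probe with the highest mean log2 signal. None of the 76 genes in 4 lists was called by limma in LT7, where 15 were higher and 2 lower at an unadjusted p under 0.05 (22.9% and 4.38% of all probes). Of 20 regulators that favour adipogenesis, 16 were well above background on both GFP arrays and 1, Lpin1, was called by the fold rule, with no gene called lower. Lpin1, a phosphatidate phosphatase and coactivator, gave 368 and 289 in GFP and 794 and 747 in LT7, 2.53-fold higher (adjusted p = 0.10). Its change was -0.88 with the spike-in scaling. That scaling put the median of all probes in LT7 against GFP at -2.05. The spike-in values of Gata2, Gata3 and Retn below stand beside the same median. The median change of the measured genes of this list was 0.18.

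Of 18 regulators that oppose adipogenesis, 3 were called higher by the fold rule (2.89% of all probes) and none lower (3.02%), and the third of these, Wnt10b (3.53 and 2.78 in GFP, 7.94 and 8.10 in LT7), was at background on all arrays. Gata2, a transcription factor that holds back precursors, gave 861 and 814 in GFP and 2409 and 1438 in LT7, 2.38-fold higher (adjusted p = 0.10; -0.97 on the log2 scale with the spike-in scaling). Gata3, of the same family, was not well above background in GFP (12.3 and 10.6) and was so on both LT7 arrays (27.2 and 29.7), at least 2.67-fold higher (adjusted p = 0.10; -0.80 with the spike-in scaling). The median change of the measured genes of this list was 0.15.

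Of 26 genes of mature fat cells, 16 were well above background on both GFP arrays and 9 on no array. A single gene was called by the fold rule, Retn, the hormone resistin, with 139 and 119 in GFP and 368 and 222 in LT7. It was 2.38-fold higher (adjusted p = 0.14; -0.97 on the log2 scale with the spike-in scaling). The median change of the 15 measured genes was -0.10. Of 12 other genes of the renin-angiotensin system, which acts on the product of Agt, 4 were well above background on both GFP arrays and these had a median change of 0.13. A single gene of this list was called lower by the fold rule, and it was not well above background on both arrays of either group.

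**Figure D3:**
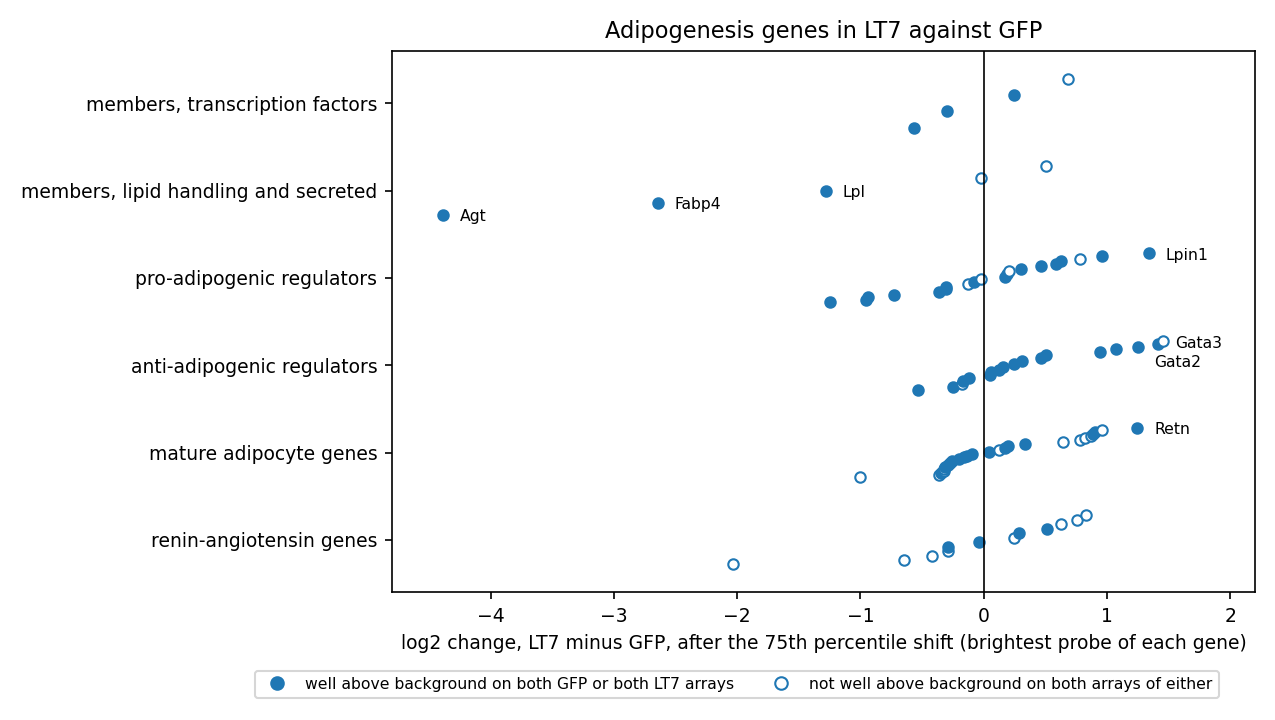
Log2 change in LT7 against GFP of the members and of 4 lists of adipogenesis genes, each gene by its brightest probe; filled points were well above background on both GFP or both LT7 arrays. Gene names mark filled points called by the fold rule: Agt, Fabp4 and Lpl lie at -4.39, -2.64 and -1.28, and Lpin1, Gata2, Gata3 and Retn between 1.25 and 1.42.

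The arrays labelled ST7, on which Sirt7 was not detected, were compared with the same GFP arrays, so both comparisons share their controls. The percentile shift weighed heavily here, since it moved the median log2 change of all probes from -0.68 to 3.72. The median was 1.78 where only the 11087 probes measured on every array entered the percentile, 0.37 by quantile normalization and -0.49 when spike-in RNAs set the scale. In LT7 these medians were 0.17 after the shift, 0.07 without scaling, 0.15, 0.02 and -2.05. For this reason the signals and the range over these 5 scalings are given for each member.

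Cebpa, which completes the cascade and maintains the mature fat cell, was measured on the arrays labelled ST7 and on no others. Probe 1 gave 147 and 134 there, and probe 2 gave 95.9 and 82.1, against 8.18 or less on every GFP and LT7 array. After the shift probe 1 was at least 312-fold higher than GFP (log2 change 9.49, SE 0.55, adjusted p = 2.8e-05) and probe 2 at least 198-fold (9.39, SE 0.23, adjusted p = 1.7e-05). Without scaling the limits were 14.8-fold and 9.37-fold, the lowest under any of the 5 scalings. Of the 25357 probes not well above background on either GFP array, 2.59% were so on both ST7 arrays. The 5 member probes of this kind included both Cebpa probes.

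The other regulators had no such stable direction or were lost. Pparg gave 12.2, not well above background, and 26.7 on the ST7 arrays, both below all GFP values before scaling. Its log2 change was 2.51 after the shift (SE 0.40, adjusted p = 0.0017), 2.19 with quantile normalization and 0.57 with the percentile over measured probes, but -1.89 without scaling and -1.70 with the spike-in RNAs. Cebpb was measured on both ST7 arrays with 149 and 139. Its change of 0.41 (SE 0.20, adjusted p = 0.099) did not pass, was 0.69 with quantile normalization, and turned to -1.52 with the percentile over measured probes, -3.99 without scaling, -3.79 with the spike-in RNAs and -1.11 after normexp background correction.

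Cebpd fell from 42637 and 38155 in GFP to 2.84 and 3.22, not well above background, on the ST7 arrays. It was at least 246-fold lower than GFP (log2 change -9.31, SE 0.22, adjusted p = 1.7e-05), the smallest limit under the 5 scalings. Of the 2041 probes with a mean GFP signal of at least 20000, 29.3% were likewise lost on both ST7 arrays. They included Cox5a, a subunit of the respiratory chain that cells in general use, with 43643 and 44847 in GFP and 2.90 and 3.13 on the ST7 arrays, and Oaz1, a regulator of polyamine synthesis, with 38826 and 38150 against 3.39 and 3.98. What the loss of such genes has to do with that of Cebpd was not tested.

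On neither ST7 array were Fabp4, Lpl and Agt well above background. Fabp4 probes 1 and 2 lay between 3.48 and 9.76 there, Lpl probes 1 and 2 between 2.82 and 3.51, and Agt at 2.81 and 3.13. All of these were below every GFP value, and below every LT7 value. The limits after the shift were 17.5-fold and 2.14-fold for Lpl probes 1 and 2 (adjusted p = 1.7e-05 and 0.00048), 3.63-fold for Agt (0.0034), 2.93-fold for Fabp4 probe 2 (0.00018) and 1.88-fold for Fabp4 probe 1 (0.019). The change of these 5 probes was downward under all 5 scalings. Fabp4 probe 1 lost its call without GFP replicate 1 (adjusted p = 0.073), GFP replicate 2 (0.086) or ST7 replicate 1 (0.069), where its change was -1.57, -1.48 and -1.01.

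Cd36, Adipoq and Fabp4 probe 3 remained at background, between 2.85 and 6.47, on the ST7 arrays. They were nonetheless called higher after the shift, with log2 changes of 3.96, 4.75 and 2.64 near the median of all probes, and without scaling these were -0.44, 0.36 and -1.76. No fold is given for them. With these, limma called 12 of 13 member probes in ST7 against GFP, against 90.6% of all probes, and 6 were higher (70.7% of all probes) and 6 lower (19.8%). This split followed the scaling: without scaling 2 were higher and 9 lower, and scaling on spike-in RNA gave 2 and 6. Over all probes the share of calls that were higher went from 78.1% to 9.31% and 1.74%. The fold rule also called 12 of 13, against 89.7% of all probes, with 6 higher (70.7%) and 6 lower (19.0%). Of the 32119 probes well above background on both GFP arrays, 53.0% were not so on either ST7 array, and 6 of 8 member probes were in that state. By the fold rule 36.3% of these 32119 probes were called lower, and the same 6 of 8 member probes were. All of this applies to the arrays as labelled.

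**Figure D4:**
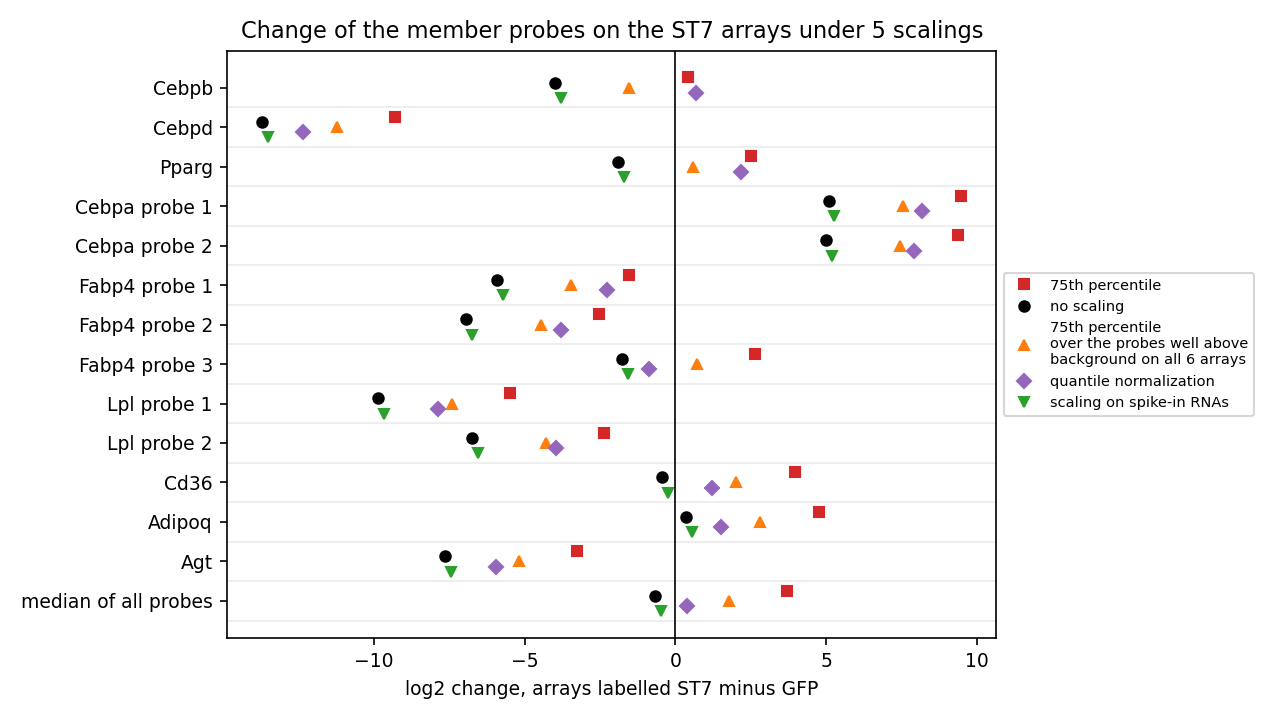
Log2 change on the arrays labelled ST7 against GFP for each member probe, and the median of all probes, under 5 scalings (1 symbol each). The Cebpa probes lie above 0 under every scaling, as does Adipoq, which was at background on all arrays. Cebpd, Lpl, Agt and Fabp4 probes 1 and 2 lie below 0 under every scaling, while Pparg, Cebpb, Cd36 and Fabp4 probe 3 fall on both sides.

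ST7 was also set against LT7, the other SIRT7GFP clone. There limma called 10 of 13 member probes, against 90.7% of all probes, with 7 higher (71.0%) and 3 lower (19.7%). The higher calls included Cd36, Adipoq and Fabp4 probe 3, at background in both groups, with log2 changes of 3.98, 4.25 and 3.69. Without scaling these changes were -0.32, -0.05 and -0.61. Without scaling the split was 2 higher and 8 lower, and the share of higher calls over all probes went from 78.3% to 8.73%. The Cebpa probes were at least 209-fold and 132-fold higher in ST7 (log2 changes 8.80 and 8.53, adjusted p = 3.9e-05 and 2.4e-05), with limits of 10.6-fold and 6.71-fold without scaling, the lowest under the 5 scalings, and Cebpd was at least 167-fold lower (-8.74, adjusted p = 2.4e-05). Lpl probe 1 was at least 7.20-fold lower (-4.19, adjusted p = 3.4e-05). Fabp4, Lpl probe 2 and Agt, already low in LT7, gave no fold after the shift, since the LT7 level then lay under the limit of the ST7 arrays, although limma called Lpl probe 2 lower (-0.81, adjusted p = 0.034). Without scaling Fabp4 probes 1 and 2, Lpl probe 2 and Agt were at least 5.93-fold, 7.51-fold, 14.5-fold and 3.42-fold lower in ST7. Pparg changed by 2.26 (adjusted p = 0.0026) but by -2.04 without scaling. Cebpb changed by 0.71 (adjusted p = 0.018), a call lost without LT7 replicate 2 (0.065), ST7 replicate 1 (0.10) or ST7 replicate 2 (0.053), and by -3.59 without scaling, -1.28 with the spike-in RNAs, -1.22 with the percentile over measured probes and -0.82 after normexp correction.

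Genes of the same lists were divided on the ST7 arrays. Of the 20 regulators that favour adipogenesis, limma called 9 higher and 9 lower after the shift (70.7% and 19.8% of all probes), and 7 were higher and 10 lower with a fold or limit. The 4 with the largest folds or limits whose direction held under all 5 scalings were Klf15 (193 and 167 on the ST7 arrays against 2.76 and 2.69 in GFP, at least 400-fold higher), Zfp423 (32.0 and 24.8 against 13.8 and 8.43, at least 55.0-fold), Ppargc1b (631 and 577 against 366 and 270, 40.5-fold) and Bmp4 (30.4 and 30.9 against 17.3 and 19.6, 35.1-fold). Klf15 is a factor that acts upstream of Pparg in fat cells, and Zfp423 marks committed precursors. The size of all but Klf15 came mostly from the shift, since without scaling their log2 changes were 1.38, 0.94 and 0.73, against 6.04 for Klf15.

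Of the 18 opposing regulators limma called 12 higher and 5 lower (70.7% and 19.8% of all probes). Dlk1 (Pref-1), which keeps precursors from differentiating, had 39704 and 29950 in GFP, 59218 and 64728 in LT7 (saturated on both) and 4.25 and 3.19, not well above background, on the ST7 arrays, at least 211-fold lower. Hes1 (57.8 and 42.1 against 12.5 and 17.0, 71.3-fold), Gata2 (2206 and 2120 against 861 and 814, 54.5-fold) and Id2 (4152 and 4314 against 2312 and 2936, 34.3-fold) were higher under all 5 scalings. Without scaling their log2 changes were 1.76, 1.37 and 0.70.

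Of the 26 genes of mature fat cells limma called 17 higher and 5 lower (70.7% and 19.8% of all probes), while 17 were at background on both ST7 arrays and 7 of the 26 were higher with a fold or limit. Agpat2, an enzyme of triglyceride synthesis, gave 1054 and 1144 against 78.7 and 69.0 in GFP, 314-fold higher (3.90 on the log2 scale without scaling). The lipase inhibitor Angptl4 (13270 and 12918 in GFP against 10.9 and 3.33) and the lipid droplet protein Plin2 (10141 and 8775 against 2.83 and 3.26) were at least 79.1-fold and 57.6-fold lower. Nrg4, a secreted growth factor, gave 16.0 and 13.1 against 5.35 and 9.38, at least 30.4-fold higher after the shift (1.03 on the log2 scale without scaling), with 1 of the ST7 arrays well above background.

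Of the 12 renin-angiotensin genes limma called 10 higher and 2 lower (70.7% and 19.8% of all probes), but 10 were at background on both ST7 arrays and only 2 were higher with a fold or limit. The aminopeptidase gene Anpep gave 470 and 770 against 196 and 138 in GFP, 77.2-fold higher (1.87 without scaling). Ace, which converts angiotensin, was 21.1-fold higher after the shift although its signals were alike, 60.0 and 61.8 against 60.5 and 61.2. Atp6ap2, the prorenin receptor, and Lnpep, a receptor with aminopeptidase activity, were at least 7.35-fold and 1.5-fold lower.

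The start regions of Cebpa and Agt, the member that was high in ST7 alone and the member with the most negative log2 change in LT7, were read from RefSeq (build GRCm38.p6), which held a promoter for 6 of the 9 members. The 250 bases before the start are shown, and capitals mark TATAAA:
Cebpa, chr7:35119043-35119292, plus strand: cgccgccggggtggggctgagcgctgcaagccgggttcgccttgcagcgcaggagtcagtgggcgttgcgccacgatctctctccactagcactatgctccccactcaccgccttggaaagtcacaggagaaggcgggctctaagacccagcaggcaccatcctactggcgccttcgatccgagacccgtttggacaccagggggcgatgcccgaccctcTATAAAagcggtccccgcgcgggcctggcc
Agt, chr8:124569707-124569956, minus strand: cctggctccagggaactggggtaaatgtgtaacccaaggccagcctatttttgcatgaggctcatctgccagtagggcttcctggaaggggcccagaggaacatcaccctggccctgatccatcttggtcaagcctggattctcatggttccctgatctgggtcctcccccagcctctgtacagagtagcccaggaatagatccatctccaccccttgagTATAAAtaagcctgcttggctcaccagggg
Both held TATAAA once, beginning 30 bases before the start. A match to TATAAA anywhere in the 250 bases, on either strand, was found in 12.4% of all 32851 promoters. Neither held CCAAT, TTNCNNAA (bound by C/EBP factors) or AGGTCA (a nuclear receptor half-site) on either strand, which 33.8%, 36.8% and 14.0% of all promoters did. Of the 3 Pparg promoters, 2 held AGGTCA, and the Cebpb promoter held none of the 4 motifs.

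The genes whose pattern lay nearest to each member were found by the root mean square difference of centred log2 values over the 6 arrays. Candidates were probes well above background on both arrays of every group where the member was so, and they could be so in other groups too. For Fabp4 they were P2rx3 (0.32) and Pde1a (0.36), and for Lpl Tmem176a (0.18) and Cgnl1 (0.25). Agt had none as close, with Srpx2 at 0.73 (658 and 552 in GFP, 38.9 and 48.8 in LT7) and 5031410I06Rik at 0.75. Cebpd was nearest to Cox5a (0.13) and Oaz1 (0.17), Cebpa to Fam83g (0.26) and Mtpn (0.34), Cebpb to Slc39a13 (0.10) and Zfp821 (0.11), and Pparg to N4bp2 (0.10) and V1ra5 (0.13). The 6 arrays form 3 groups, so this likeness is only a description of the pattern over the groups. Levels could differ, as for Mtpn, with 429 to 671 on the GFP and LT7 arrays, where Cebpa was at background, and 11812 and 11926 in ST7.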

How the data were processed

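RNA of 6 samples, 2 per group (GFP, LT7 and ST7), was labelled with the dye Cy3 before hybridization on one-colour mouse arrays (Agilent) of 61307 probes that were not controls. The deposited scanner files hold, per the file headers, the intensity of each spot after background subtraction by the authors with Agilent Feature Extraction 10.5.1.1. The authors also deposited log2 values after a percentile shift, and after a constant offset per array was removed these differed from values recomputed here by more than 0.01 for 5 to 13 probes per array.

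Here log2 of the processed signal was taken, outlier spots were dropped, repeats of a probe were averaged, and each array was shifted by its 75th percentile. Differences were tested with limma 3.58.1 in R 4.3.3 (lmFit, eBayes) on all 6 arrays, at an adjusted p under 0.05 over all probes, after the script had been tested on simulated data; the methods' fold rule was the other call. Tables and figures were made with Python 3.11.15, pandas 2.3.3, numpy 2.4.6 and matplotlib 3.10.9. All member probes are described; genes of the lists were named where called in LT7 and measured on both arrays of the group where they were higher, or, for ST7, as the 4 per list with the largest fold in 1 direction under all scalings. Members and lists were chosen with earlier results of these data known. Alternatives were other scalings, normexp (offset 50), the deposited matrix, a filter on dim probes, outliers kept, the replicate number as a block, only the arrays compared, and each array left out. The number of arrays limits the precision, and genes are named as on the array.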

Additional observations from a re-analysis of the deposited data

How the results depend on the processing

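The count of member probes called by limma in LT7 against GFP (1) was 0 under spike-in scaling, quantile normalization, the replicate number as a block and a fit of only the arrays of the 2 groups compared, and 5 after normexp background correction. Leaving out each array in turn gave 0 to 2. For ST7 against LT7 (10) the count was 4 with the spike-in scaling. The counts by the fold rule, and those of ST7 against GFP, stayed within 1.5 times their main values under every alternative tried, at 5 to 8 of 13 in LT7 and 9 to 12 in ST7 by the fold rule, and 8 to 13 by limma in ST7 against GFP, but the split into higher and lower in ST7 against GFP went from 6 and 6 to 2 and 9 without scaling. The direction turned for Pparg in LT7 (-1.97 with the spike-in RNAs), in ST7 against GFP (-1.89 without scaling, -1.70 with the spike-in RNAs) and in ST7 against LT7 (-2.04 without scaling), and for Cebpb in ST7 against GFP (-3.99 without scaling, -1.52 with the percentile over measured probes, -3.79 with the spike-in RNAs, -1.11 with normexp) and in ST7 against LT7 (-3.59, -1.22, -1.28 and -0.82 likewise). With the spike-in RNAs the median of all probes in LT7 against GFP was itself -2.05. The cause was not tested. Of the other changes of single probes with a fold, 112, 149 and 86 kept direction and side of the threshold in LT7 against GFP, ST7 against GFP and ST7 against LT7, and 9, 4 and 5 fell below the threshold. A further 6 in LT7 against GFP and 1 in ST7 against GFP passed the threshold only under the alternative. The deviations of same-numbered arrays correlated at 0.09 (GFP and LT7), 0.33 (GFP and ST7) and -0.03 (LT7 and ST7). A replicate effect shared by GFP and ST7 is therefore not excluded. With the replicate block the counts were 0, 12 and 10. Signals at background limit Cebpa in GFP and LT7, Cd36, Adipoq and Fabp4 probe 3 throughout, and most members in ST7.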
